A study of Mus musculus with 7 samples.

Results

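The genes described here are the keratins of liver epithelium and a group of genes known from bile ducts and liver progenitor cells. They are Krt8, Krt18, Krt7, Krt19, Krt23, Epcam, Sox9, Spp1 and Cd24a, 9 genes taken by name from the platform annotation, with every probe listed for them. Of the 9 genes, 8 had a probe, 10 probes in all of the 45281 on the array, and Spp1 was not analysed here because no probe was listed under its symbol. The study took whole livers of mice 12 h after PHx (partial hepatectomy, in which a share of the liver is cut away so that the rest regenerates) and read their RNA on single-colour Illumina bead arrays. The 7 samples were 4 from LTBR KO mice, which lack the lymphotoxin beta receptor, and 3 from WT mice. All were C57BL/6 and all had undergone PHx, and no unoperated liver was analysed here, so effects of the genotype before and after surgery cannot be told apart. The labels name no allele, age or sex for either genotype, and no statement that each sample was a separate animal, so p-values cover the spread among these arrays and may partly measure technical variation. Setting KO against WT asks what the regenerating liver expresses differently when the receptor is missing.

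Keratins are the intermediate filament proteins of epithelial cells, and each filament pairs a type I with a type II chain. Hepatocytes normally make the type II keratin Krt8 and the type I keratin Krt18 and no other pair, and these filaments protect the cell against mechanical and toxic stress. Cholangiocytes, the cells that line bile ducts, make Krt7 and Krt19 in addition. Sox9 is a transcription factor of biliary cells and of hepatocytes that take on biliary traits, and Epcam and Cd24a are surface proteins of biliary and progenitor cells. Krt23 is a type I keratin that injured mouse liver induces.

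The deposited intensities had a median of 91.1 on every array and ran from 72.6 to 30878. A background floor was set at an intensity of 93.5, which is 4.98 on the background-corrected log2 scale used for all tests. Probes above it on at least 3 arrays were kept, which left 13290 genes or unnamed probes for the test of KO against WT (limma, Benjamini-Hochberg adjustment over all of them). With 7 arrays, a typical log2 difference had a standard error (SE) of 0.18, the median over genes. Ltbr, the targeted gene, had intensities of 120.0, 137, 129 and 111 in the KO samples, against 161, 194 and 217 in the WT samples. All KO samples were below all WT samples, with a log2 difference of -1.04 (SE 0.20, adjusted p = 0.088). Where its probe lies relative to the deleted part is not given in the sources used here. Many hepatocyte genes were bright, with Ttr at a mean log2 intensity of 14.51 in KO and 14.52 in WT and Apoa1 at 14.66 in KO and 14.71 in WT. The only kept probes of Alb, Fgb and Tat were dim, at 6.73, 5.10 and 5.61 in KO and 7.13, 5.43 and 5.65 in WT.

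Krt8 and Krt18 lie near each other on chromosome 15, with 2 genes annotated between them in RefSeq, neither of them protein coding. Since their values moved together across the samples, the sequences around their annotated starts are shown, from 250 bases before to 20 bases after the start, 5′ to 3′ on the strand of the gene, from RefSeq of GRCm38.p6. Krt8 is chr15:102004323-102004592 on the minus strand and Krt18 is chr15:102027966-102028235 on the plus strand. Capitals mark matches to the motifs searched.
Krt8: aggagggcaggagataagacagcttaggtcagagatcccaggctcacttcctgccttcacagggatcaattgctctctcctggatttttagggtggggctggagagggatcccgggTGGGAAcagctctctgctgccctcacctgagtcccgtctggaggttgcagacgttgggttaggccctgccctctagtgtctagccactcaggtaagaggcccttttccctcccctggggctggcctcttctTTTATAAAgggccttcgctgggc
Krt18: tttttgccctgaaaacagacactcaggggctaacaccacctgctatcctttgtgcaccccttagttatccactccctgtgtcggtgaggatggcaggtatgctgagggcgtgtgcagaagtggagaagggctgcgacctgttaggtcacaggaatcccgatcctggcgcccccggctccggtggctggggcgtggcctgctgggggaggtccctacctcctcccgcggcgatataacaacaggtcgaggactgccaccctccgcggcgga
Both strands of these windows of 270 bases were searched for 6 motifs. They were the TATA box as TATAAA, the GC box as GGGCGG, the TEAD motif as GGAATG, the RBPJ motif as TGGGAA, the CCAAT box as its name spells it, and the AP-1 motif as TGA and TCA with any 1 base between them. The Krt8 window held TATAAA on both strands in overlapping matches at the annotated start, and 1 RBPJ match that begins 134 bases before it. TATAAA was found in 12.9% of the 32851 windows in the RefSeq table and TGGGAA in 23.1%. The Krt18 window held none of the 6 motifs as spelled here. The shares of all windows were 34.1% for the GC box, 7.23% for AP-1, 13.5% for TEAD and 35.4% for CCAAT. A match of letters is no measurement of binding.

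Krt8 and Krt18 were among the brightest probes of the array and were higher in 3 of the 4 KO samples than in any WT sample. The bright Krt8 probe had intensities of 17303, 15539, 18676 and 8161 in KO replicates 1 to 4, against 6964, 8196 and 10526 in WT replicates 1 to 3. KO replicates 1, 2 and 3 thus lay above all WT samples, and KO replicate 4 lay between WT replicates 1 and 2. On the log2 scale Krt8 averaged 13.79 ± 0.55 in KO (SD, n = 4) and 13.03 ± 0.30 in WT (SD, n = 3). The log2 difference of 0.76 (SE 0.27, 95% interval 0.16 to 1.36), 1.69-fold, had an unadjusted p of 0.017 by limma and an adjusted p of 0.23 over all genes tested. Krt8 therefore did not pass the threshold of an adjusted p under 0.05. Without KO replicate 4 the difference was 1.03 (SE 0.20) and the adjusted p 0.12.

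Krt18 had intensities of 8608, 6885, 10800 and 3683 in KO replicates 1 to 4, against 3591, 4080 and 4841 in WT replicates 1 to 3. The order of the samples was that of Krt8, with KO replicates 1, 2 and 3 above every WT sample and KO replicate 4 between WT replicates 1 and 2. The means were 12.75 ± 0.68 in KO (SD, n = 4) and 11.99 ± 0.22 in WT (SD, n = 3) on the log2 scale. The log2 difference was 0.76 (SE 0.31, 95% interval 0.09 to 1.43), 1.69-fold, with an unadjusted p of 0.030 by limma and an adjusted p of 0.28. Without KO replicate 4 it was 1.07 (SE 0.21, adjusted p = 0.12).

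**Figure D1:**
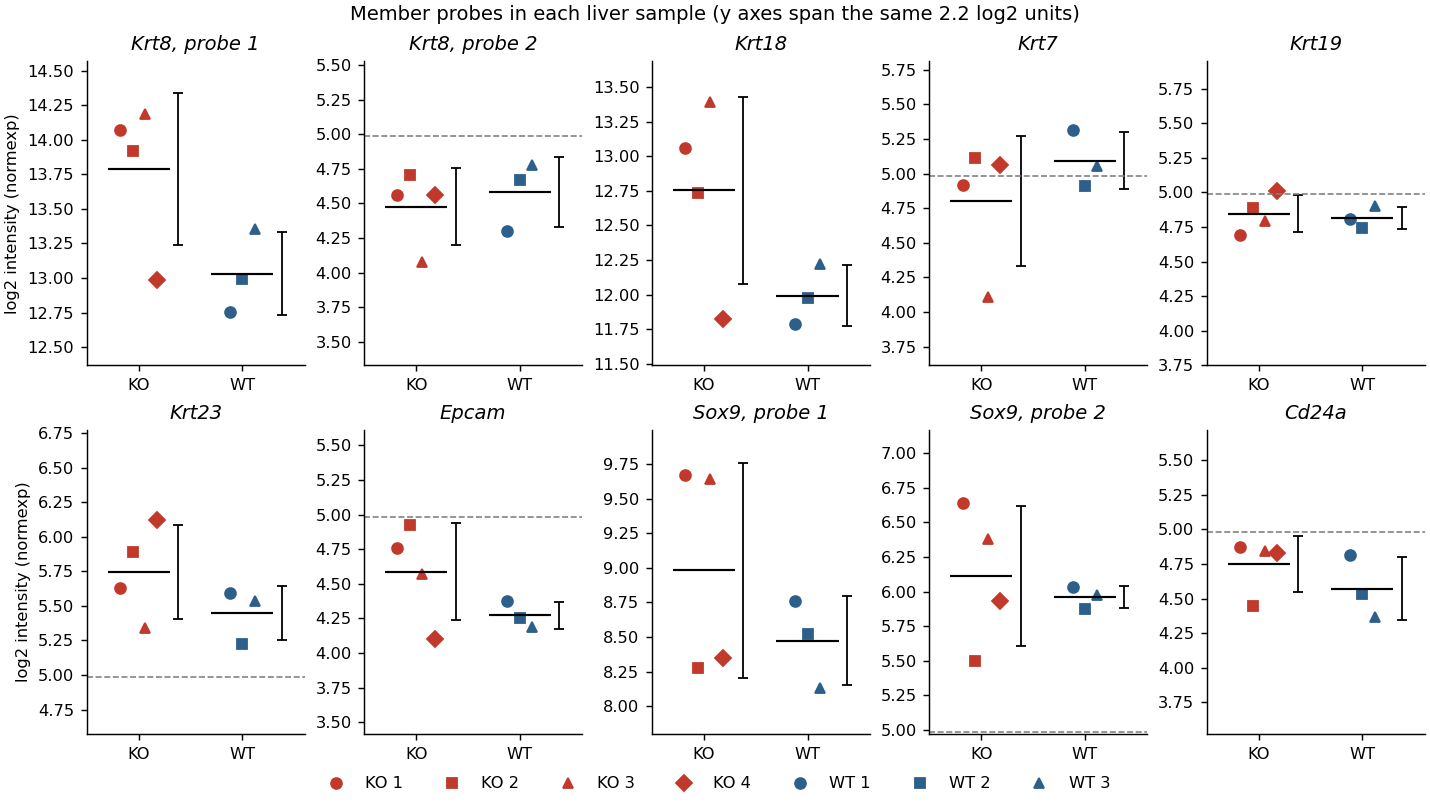
Background-corrected log2 intensity of each of the 10 member probes (y axis) in the KO and WT samples (x axis, 1 symbol per replicate), with horizontal lines at group means, bars of 1 SD and a dashed line at the floor of 4.98. Krt8 probe 1 and Krt18 are high in KO replicates 1 to 3 and at the WT level in KO replicate 4, Sox9 probe 1 is high in KO replicates 1 and 3, and Krt8 probe 2, Epcam and Cd24a lie under the floor on all 7 arrays.

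The pair kept 1 order over all 7 arrays, from WT replicate 1 at the low end through KO replicate 4, WT replicates 2 and 3 and KO replicates 2 and 1 to KO replicate 3. Spearman's rho was 1.0 (exact permutation p = 0.0004, n = 7 arrays) and Pearson's r was 0.98 (exact permutation p = 0.0002, n = 7 arrays). Among the 10 pairs of tested members, the Benjamini-Hochberg adjusted values were 0.0040 for rho and 0.0020 for r by the same exact permutation tests. With the arrays farthest from the Krt8 median left out, KO replicates 1 and 3, r was 0.99, and r was 0.97 when each value was taken about the mean of its genotype. Both genes were read on the same arrays, which share normalization. Of the 10448 other named genes tested, Krt18 had the highest r with Krt8. No other pair of members passed the adjustment, the next being Krt18 with Krt7 (r = -0.74, exact permutation p = 0.026, adjusted 0.13), for which r was -0.14 without KO replicates 1 and 3.

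**Figure D2:**
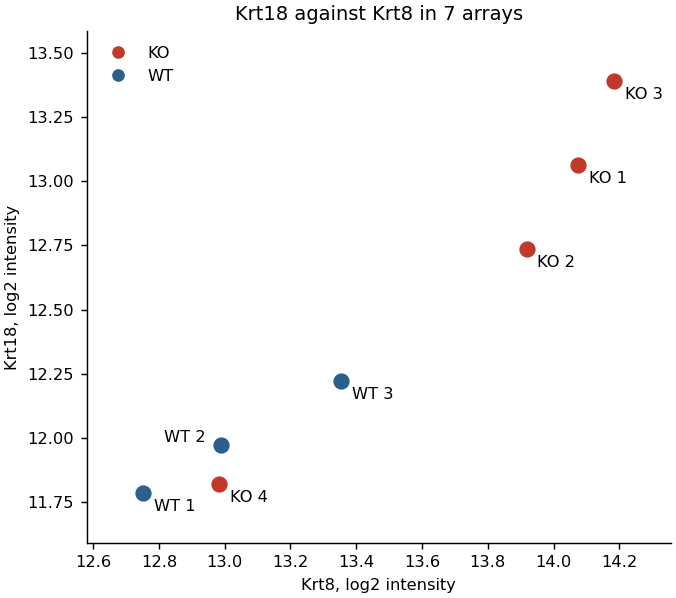
Log2 intensity of Krt18 (y axis) against that of Krt8 (x axis), 1 point per array, coloured by genotype and labelled by replicate. KO replicates 1, 2 and 3 lie at the upper right, apart from KO replicate 4 and the WT samples, and the order along both axes is identical.

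The spread of these genes within the KO group was wide. The KO SD of Krt8 exceeded that of 96.0% of the genes tested and that of Krt18 exceeded 98.5%, where the median gene had an SD of 0.23 in KO and 0.22 in WT. Within WT, the SD of Krt8 exceeded that of 71.5% of genes and that of Krt18 exceeded 50.9%. A second Krt8 probe, at intensities from 77.9 to 87.9 in KO and from 81.5 to 89.3 in WT, was under the floor on all 7 arrays and so measured no level.

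Sox9 was the other member with a clear level. Its brighter probe had intensities of 876, 371, 862 and 388 in KO replicates 1 to 4, against 496, 430 and 342 in WT replicates 1 to 3. KO replicates 1 and 3 were above every WT sample, and KO replicates 2 and 4 were within the WT range. The means were 8.98 ± 0.78 in KO (SD, n = 4) and 8.47 ± 0.32 in WT (SD, n = 3), and the KO SD exceeded that of 99.2% of genes. The log2 difference of 0.51 (SE 0.35, 95% interval -0.25 to 1.27) did not pass (adjusted p = 0.55 by limma). It was 0.28 without KO replicate 1, 0.29 without KO replicate 3 and 0.34 without WT replicate 3.

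The second Sox9 probe gave the same picture of KO replicates at a lower brightness, with intensities of 162, 107, 145 and 123 in KO, against 127, 121 and 125 in WT. KO replicates 1 and 3 again lay above every WT sample, and KO replicate 2 below all of them. Its log2 difference was 0.15 (SE 0.24). Sox9 was thus high in KO replicates 1 and 3 but not in KO replicate 2, whose Krt8 and Krt18 were high. For Sox9 with Krt8, r was 0.60 (exact permutation p = 0.18, n = 7 arrays) and -0.70 without KO replicates 1 and 3.

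Krt23 was dim but above the floor on all 7 arrays. Its intensities were 111, 121, 102 and 132 in KO replicates 1 to 4, against 110.0, 99.1 and 108 in WT replicates 1 to 3. KO replicates 1, 2 and 4 exceeded every WT sample and KO replicate 3 did not. The highest sample was KO replicate 4, the KO sample lowest in Krt8 and Krt18, and the lowest KO sample was KO replicate 3, the highest in both. The log2 difference was 0.30 (SE 0.20, 95% interval -0.15 to 0.74, adjusted p = 0.55 by limma). It was 0.17 without KO replicate 4 and 0.18 without WT replicate 2.

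The biliary keratins were at the edge of detection. Krt7 had intensities of 92.1, 96.4, 78.7 and 95.2 in KO, against 102, 91.9 and 95.05 in WT. Only 2 KO and 2 WT samples were above the floor, and KO replicate 3 was the lowest. The log2 difference of -0.29 (SE 0.24, 95% interval -0.82 to 0.23, adjusted p = 0.62 by limma) was -0.06 without KO replicate 3 and -0.18 without WT replicate 1, and -0.09 with no background correction.

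Krt19, the keratin most used to mark bile ducts, had intensities of 87.6, 91.4, 89.6 and 94.0 in KO, against 89.8, 88.6 and 91.7 in WT. It was above the floor in KO replicate 4 and in no other sample, and was not tested. Epcam lay between 78.6 and 92.1 in KO, against 80.0 to 82.6 in WT. Cd24a lay between 83.6 and 91.1 in KO, against 82.4 to 90.0 in WT. Both were under the floor on all 7 arrays, so that no difference could be read at this brightness. In whole tissue, fewer cells of a type and less RNA per cell cannot be told apart.

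Of the 9 genes, 5 were tested, and 0 passed the adjusted threshold in limma, where 9 of all genes tested did (0.0677%). At an unadjusted p under 0.05, 2 passed, Krt8 and Krt18, both higher in KO, as did 8.19% of all genes tested in that direction. Counted by direction, 0.00752% of all genes passed the adjusted threshold as higher in KO and 0.0602% as lower, and 6.48% passed unadjusted as lower. In both directions together 14.7% passed unadjusted. None of the 5 had groups that did not overlap, against 13.0% of all genes, 7.58% higher in KO and 5.45% lower. The 5 are the brighter part of the 8 genes with a probe, since the filter removed the dim ones.

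**Figure D3:**
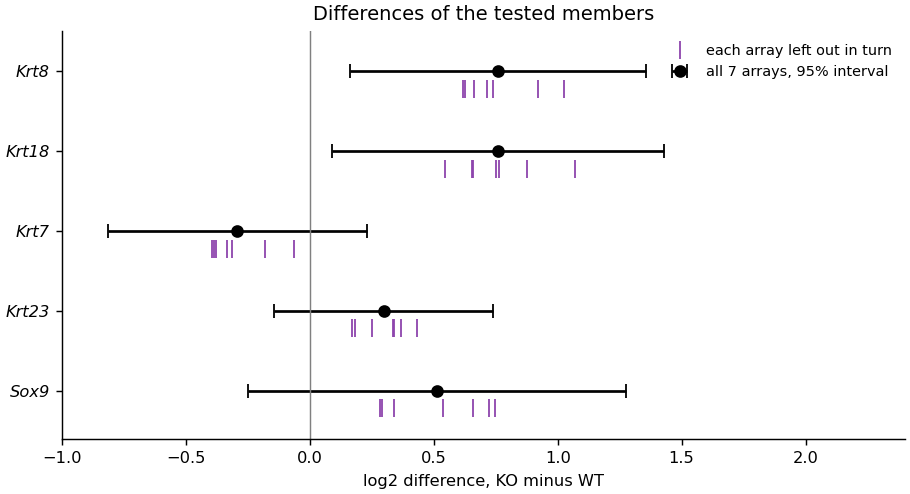
Log2 difference, KO minus WT (x axis), of the 5 tested members (rows), with the 95% interval from all 7 arrays and, below it, a tick for the value with each array left out in turn. The intervals of Krt8 (0.16 to 1.36) and Krt18 (0.09 to 1.43) lie above 0, while those of Krt7, Krt23 and Sox9 include 0.

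The genes around these members were read from lists. Of 44 other keratin genes with a probe, 9 were above the floor on at least 3 arrays and 35 were not, among them the epidermal keratins Krt1 and Krt14. The median log2 difference of the 9 was 0.01, against 0.03 over all genes tested, with 5 above 0 and 4 below, and it ran from -0.02 without KO replicate 4 to 0.14 without WT replicate 1. Krt10, a type I keratin of differentiated epidermis, differed by 0.60 (SE 0.26, adjusted p = 0.32 by limma), with log2 intensities of 6.81, 6.95, 5.74 and 6.50 in KO, against 5.71, 5.90 and 6.10 in WT. KO replicate 3 lay among the WT samples. The values were 0.22 (SE 0.16) for Krt82, 0.15 (SE 0.21) for Krt5 and 0.09 (SE 0.20) for Krt80. The KO arrays of Krt82 and Krt80 alone would have met the filter, which favours a value above 0. The WT mean of Krt82, 4.95, was under the floor.

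Genes that anchor keratin filaments to junctions and to other cytoskeletal filaments had a median of -0.09, with 2 of 7 tested above 0. None passed, adjusted or unadjusted. The median was -0.04 without WT replicate 1 and -0.03 without WT replicate 2, and with the mean of kept probes 0 of 7 were above 0. Dsg2, a desmosomal cadherin, differed by 0.37 (SE 0.22), and its 4 kept probes ran from -0.30 to 0.37. Vim, the intermediate filament of mesenchymal cells, differed by -0.30 (SE 0.21), the desmosomal plaque gene Pkp2 by -0.18 (SE 0.17) and Ppl, which links keratins to desmosomes, by 0.24 (SE 0.25). The 3 kept probes of Ppl ran from -0.66 to 0.26 and the 3 of Pkp2 from -0.35 to 0.28.

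Partners of keratins in stress had a median of 0.24, with 5 of 8 tested above 0. Single arrays moved it, to 0.02 without KO replicate 3, 0.13 without WT replicate 2, 0.08 without WT replicate 3 and 0.42 without WT replicate 1, and it was 0.08 with the mean of kept probes. None passed the adjusted threshold, and at an unadjusted p under 0.05 there were 2 above 0 and 1 below. The shares of all genes tested in these directions were 8.19% and 6.48%. Ywhaz, which encodes a 14-3-3 protein, averaged 11.72 ± 0.15 in KO and 11.26 ± 0.22 in WT (SD, n = 4 and 3), a difference of 0.46 (SE 0.17, adjusted p = 0.24 by limma). Its other kept probe differed by 0.03. Tgm2, the transglutaminase that crosslinks keratins in liver inclusions, had log2 intensities of 13.07, 12.54, 12.79 and 12.22 in KO, against 12.23, 11.89 and 12.32 in WT. KO replicates 1, 2 and 3 were above the WT samples and KO replicate 4 was not, as for Krt8, but the second kept Tgm2 probe differed by -0.37 where this one differed by 0.50 (SE 0.21, adjusted p = 0.30). The co-chaperone gene Dnaja1, above the floor on every WT array and on 1 KO array, differed by -0.51 (SE 0.16, adjusted p = 0.18) and Stip1 by -0.38 (SE 0.19). The small heat shock protein gene Hspb1 was highest in KO replicate 3, at 8.13, against 6.29 to 6.87 in the other KO samples and 6.18 to 6.92 in WT.

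Epithelial junction genes, which include the partners of EpCAM at cell contacts, had 15 of 16 tested members above 0, where 54.2% of all genes tested were above 0. Their median log2 difference was 0.39, against 0.03 over all genes. No member passed the adjusted threshold by limma. At an unadjusted p under 0.05, 6 passed, all higher in KO, as did 8.19% of all genes tested in that direction. With the mean of kept probes 5 passed unadjusted. The median was between 0.31 and 0.42 with each array left out in turn, and 0.21 with no background correction. The groups of 6 members did not overlap, all higher in KO, as did those of 7.58% of all genes in that direction. Among the 6 is Cldn7, which passed the filter through the KO arrays alone, so that its place in the count follows from the filter.

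Cldn1, a claudin of hepatocyte tight junctions, had log2 intensities of 9.15, 8.69, 8.41 and 9.23 in KO, against 7.56, 7.88 and 8.08 in WT. All 4 KO samples were above the 3 WT samples, including KO replicate 4. The difference was 1.03 (SE 0.22, adjusted p = 0.10 by limma). Cldn3 differed by 0.86 (SE 0.26), with 1 KO sample within the WT range. The catenin gene Ctnnb1 differed by 0.61 (SE 0.15) at its brightest probe, but its 4 kept probes ran from -0.34 to 0.61. Ctnna1, which links cadherins to actin, differed by 0.46 (SE 0.16). E-cadherin (Cdh1) differed by 0.67 (SE 0.24), and its other kept probe by 0.05. At the brighter Cdh1 probe, log2 intensities were 8.77 to 8.90 in KO, against 8.64, 8.38 and 7.47 in WT replicates 1 to 3. WT replicate 3 thus lay well below the other WT samples. The summed level of the list (background-corrected intensities added over its tested genes) was above WT in every KO sample, KO replicate 4 included, at 6896 to 8319 in KO, against 5075 to 5404 in WT.

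**Figure D4:**
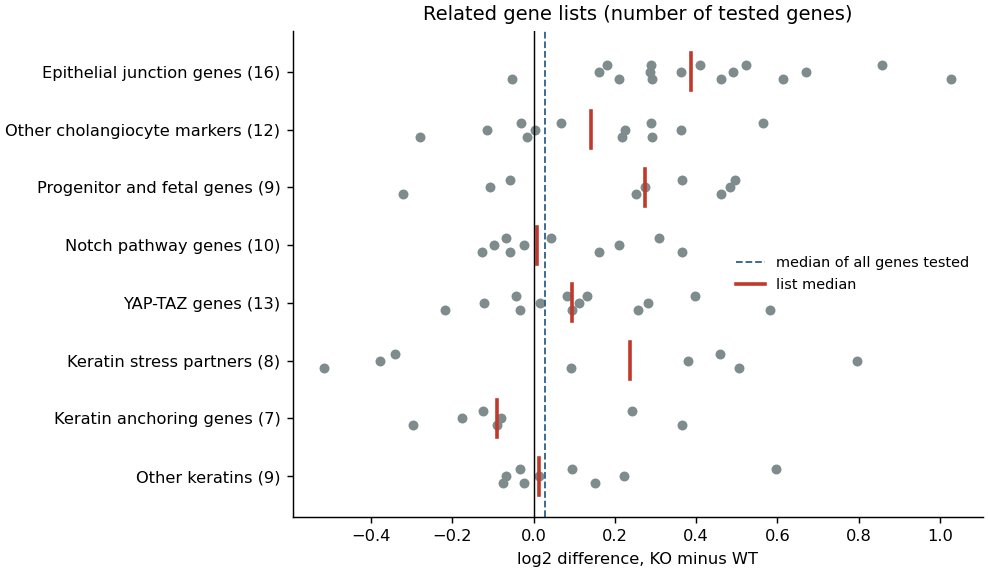
Log2 difference, KO minus WT (x axis), of each tested gene in 8 lists (rows, with the number tested), with red bars at list medians and a dashed line at the median of all genes, 0.03. The epithelial junction genes have 15 of 16 points above 0 and a median of 0.39, while the median of the other keratins is 0.01.

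Other markers of cholangiocytes had a median of 0.14, with 8 of 12 tested above 0. The median was 0.06 without WT replicate 3, 0.26 without WT replicate 1 and 0.04 with the mean of kept probes. None passed the adjusted threshold. Wfdc2, a secreted protease inhibitor of ducts (0.56, SE 0.25), was the only 1 of the 12 past an unadjusted p under 0.05. The share of all genes tested that passed in that direction was similar, at 8.19%. Cldn7, the claudin that binds EpCAM, differed by 0.36 (SE 0.17), but it was kept through the KO arrays alone, all WT arrays being under the floor. Cldn4 differed by 0.29 (SE 0.18) and the tetraspanin gene Tspan8 by 0.29 (SE 0.21). The KO arrays of Cldn4 alone would have met the filter, and its WT mean of 4.86 was under the floor. Cldn4, Cldn7 and Tspan8 are also in the list of epithelial junction genes, so the counts of these lists are not independent. The defining markers Cftr, Prom1, Slc10a2, Ehf and Tff2 were not above the floor on 3 arrays. The summed level of the 12 was 2625 to 3453 in KO, against 2016 to 3099 in WT.

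Genes of the Notch pathway, which drives Sox9 in biliary cells, had a median of 0.01, with 5 of 10 tested above 0 and none passing even unadjusted. With each array left out the median ran from -0.01 to 0.16, the highest without WT replicate 1. Adam17, a protease that cleaves Notch receptors, differed by 0.37 (SE 0.20) at its brighter probe and by -0.03 at the other. Notch1 differed by 0.31 (SE 0.20), the target Hey1 by 0.21 (SE 0.16) and the ligand gene Jag1 by 0.16 (SE 0.17). The WT means of Hey1 and Jag1, 4.97 and 4.96, were under the floor. The KO arrays of Hey1 and Jag1 alone would have met the filter, which favours a value above 0. Genes of the YAP and TAZ pathway, which in mice pushes hepatocytes towards biliary traits, had a median of 0.10, with 9 of 13 above 0. Without KO replicate 3 the median was -0.00 with 6 of 13 above 0, without WT replicate 3 it was 0.04, and with each other array left out it was 0.09 to 0.18. The target Ankrd1 differed by 0.58 (SE 0.19, adjusted p = 0.20 by limma), and its other kept probe differed by 0.37. Ankrd1 was the only 1 of the 13 past an unadjusted p under 0.05. Of all genes tested, 8.19% passed unadjusted as higher in KO, a similar share. The Hippo pathway genes Sav1 and Stk4 differed by 0.40 (SE 0.20) and 0.28 (SE 0.17), and Yap1 by 0.26 (SE 0.17). The list takes in genes of the pathway whatever their role in it, so its count and median give no direction of pathway activity.

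Progenitor and fetal liver genes had a median of 0.27, with 6 of 9 tested above 0 and none passing adjusted or unadjusted. The median was 0.17 without WT replicate 3 and 0.14 with no background correction. Igf2bp3, an RNA-binding protein of fetal tissue, differed by 0.46 (SE 0.22) at its brightest probe, its 3 kept probes running from 0.09 to 0.46. Alpha-fetoprotein (Afp) differed by 0.27 (SE 0.17). The WT means of Igf2bp3 and Afp, 4.92 and 4.90, were under the floor of 4.98. Their KO arrays alone would have met the filter, which favours a value above 0. The receptor gene Kit differed by 0.36 (SE 0.28). The growth factor receptor gene Fgfr2 differed by 0.49 (SE 0.25) at its brightest probe, and its 3 kept probes ran from -0.04 to 0.49. Lgr5, Foxl1 and Prom1 were not above the floor on 3 arrays. Receptors of osteopontin and Cd24 had a median of 0.03, with 4 of 8 above 0, and none passed adjusted or unadjusted. The median ran from -0.20 without WT replicate 3 to 0.16 without WT replicate 1. Cd44, which is in both lists, differed by 0.25 (SE 0.26), and the integrin genes Itga8 and Itga5 by -0.28 (SE 0.15) and 0.20 (SE 0.17). The WT arrays of Itga8 alone would have met the filter, which favours a value below 0, and its KO mean of 4.88 was under the floor. The other kept probe of Itga5 differed by -0.07.

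Markers of other cell types were read on the same arrays. Summed hepatocyte markers were 155373, 151882, 156013 and 172334 in KO replicates 1 to 4, against 163007, 174095 and 170818 in WT. In this sum the 3 KO samples high in Krt8 and Krt18 were below every WT sample. The mean log2 level of the same markers, which weighs each gene equally, overlapped between the groups, at 11.73 to 11.90 in KO, against 11.78 to 12.09 in WT. Of the 15 hepatocyte markers tested, 14 were below 0, with a median of -0.13 and none past an unadjusted p under 0.05. The dim probes of Alb, Fgb and Tat were among the 14. Macrophage markers were above 0 for 12 of 13, with a median of 0.31 (0.15 without WT replicate 3 and 0.50 without WT replicate 1) and a summed level of 2728 to 4842 in KO, against 1874 to 2735 in WT, highest in KO replicate 4. The macrophage receptor gene Marco differed by 1.71 (SE 0.35, adjusted p = 0.088 by limma). Mesothelium, which also makes Krt8, Krt18 and Krt19, had markers summing to 61.3 to 86.4 in KO, against 54.9 to 112 in WT, with KO replicates 1, 2 and 3 lower than KO replicate 4. Stellate cell markers summed to 4165 to 5867 in KO, against 3093 to 4073 in WT, although 5 of the 11 stellate markers tested were above 0 and 6 below, with a median of -0.00. Bright genes weigh most in such a sum. Dcn, the bright proteoglycan gene of the list, differed by 0.43 (SE 0.18) at the brightest of its 3 kept probes, with groups that overlapped. Acta2, also bright, had log2 intensities of 10.04, 8.65, 10.95 and 7.27 in KO, against 9.14, 9.04 and 8.31 in WT. Its difference was 0.40 (SE 0.66). The parts of Dcn and Acta2 in the sum were not tested. The collagen genes Col1a1 and Col3a1 differed by -0.42 (SE 0.19) and -0.34 (SE 0.32). Neutrophil markers summed to 370 to 934 in KO, against 261 to 1332 in WT, with 3 of 5 above 0. The part of these in the keratin results was not tested.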

How the data were processed

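Total RNA of whole liver was labelled with biotin, per the labels' protocols. The authors' deposited values were probe intensities on a linear scale. All 7 columns share 1 set of quantiles and none reaches near 0, so they had been normalized between arrays and show no background subtraction. The submitters' processing notes name Partek and give no version. A scanner table with 14 columns of signal and detection p was not used, because no label ties its columns to samples. Background was corrected with limma's normexp (version 3.58.1, R 4.3.3), using an offset of 16, before taking log2. The floor is the 0.95 quantile of a normal distribution whose centre is the most frequent intensity and whose width comes from the intensities below it. Of 45281 probes, 18924 were above it on at least 3 arrays. A gene with several kept probes was represented by the brightest. Symbols came from the platform annotation, in which 34885 probes had 1 gene symbol, 18 had several and 10378 had none. Probes without a single symbol were tested under their own identifiers. Two-sided tests of KO against WT used limma's lmFit and eBayes without covariates. The exact permutation tests of correlations, two-sided over all 5040 pairings, used SciPy 1.17.1. The procedure was tested on simulated data.

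Samples were grouped by the genotype in the labels, with replicate numbers from the titles. Numbers were not taken to pair the samples. The correlations of deviations between same-numbered samples were -0.19, -0.04 and -0.30. Differently numbered samples were not compared, so these values cannot settle whether samples were paired or shared a batch. Named genes were the 9 members, Ltbr, up to 4 genes of smallest p from each list and, for each tested member, the 2 genes of highest r. Genes named as under the floor, Cdh1, Hspb1, Acta2, Apoa1, Ttr, Alb, Fgb and Tat were added after their values were seen. The lists of B cells, T and NK cells, endothelium, erythroid cells and pancreas had no member past the threshold. The members and lists were chosen with earlier results of these data known. Alternatives changed the background correction, normalization, filter, probe choice, prior, array weights and replicate block, and left out each array.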

Additional observations from a re-analysis of the deposited data

Results flagged for a closer look

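Cd24a in KO replicate 2 stood apart from the other KO samples. Its log2 intensity was 4.45 there, against 4.83 to 4.87 in the other 3, and the gap was 0.901 of the group's range, above Dixon's critical value for 4 samples. The probe was under the floor of 4.98 on all 7 arrays, and its deposited intensity in KO replicate 2 was 83.6.

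Macrophage markers summed to 4842 in KO replicate 4 and to 2728, 2889 and 3021 elsewhere in the KO group, a gap of 0.862 of the range. KO replicate 4 was also the KO sample lowest in Krt8 and Krt18, although its gaps of 0.778 and 0.583 did not reach the critical value. Of 30 sets of 4 KO values examined in this way, 2 passed, and chance passes about 1 in 20.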

How the results depend on the processing

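The members called did not change under any alternative run: no member passed an adjusted p under 0.05 and none changed sign. The difference of Krt8 ran from 0.71 to 1.03 over 10 alternatives and from 0.62 to 1.03 with each array left out, and that of Krt18 from 0.72 to 1.07 and from 0.55 to 1.07. Their lowest adjusted p was 0.056 and 0.084, both with array weights. The number of genes past the threshold, 9 with 1 higher and 8 lower, was 4 with no background correction (1 higher, 3 lower), 19 with no filter on dim probes (7 higher, 12 lower), 1 among probes above the floor on all 7 arrays, 3 with the mean of kept probes, 2 with an intensity trend and robust prior and 938 with array weights (506 higher, 432 lower). With a normexp offset of 50 it was 6, with 2 higher and 4 lower. Those weights ran from 0.47 for KO replicate 3 to 2.3 for KO replicate 1. With the replicate number as a block, which also leaves KO replicate 4 without a partner, it was 3, with 1.03 for Krt8 and 1.07 for Krt18 (adjusted p = 0.30 for both). It ran from 2 to 5 with each array left out in turn. The cause was not tested. With no filter, Krt19 differed by 0.03, Epcam by 0.32 and Cd24a by 0.18, with adjusted p from 0.65 to 0.98, and their group means were under the floor. For Krt7, Krt19, Epcam and Cd24a, signal over background limits the comparison, while Sox9 and Krt23 were above the floor on all 7 arrays.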

Other observations

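The genes most like each member over the 7 arrays were taken by Pearson's r among 10448 other named genes, as a description. All values share the arrays and their normalization. For Krt18 they were Anxa2, which encodes a membrane- and actin-binding annexin (r = 0.99, log2 difference 0.71, SE 0.33), and the tropomyosin gene Tpm4 (r = 0.98, 0.54, SE 0.22), with Krt8 the third. For Krt8 they were Krt18 and the membrane serine protease gene Prss8 (r = 0.98, 0.24, SE 0.16). Neither Anxa2, Tpm4 nor Prss8 passed the adjusted threshold by limma (adjusted p = 0.35, 0.29 and 0.55).

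For Sox9 the genes were Rabgef1 (r = 0.98, log2 difference 0.24) and Dhx37 (r = 0.98, 0.39). For Krt23 they were Polr3k (r = 0.97, 0.31) and the mannose receptor gene Mrc1 of macrophages and sinusoidal endothelium (r = 0.97, 0.31). For Krt7, whose probe was near the floor, they were Hltf (r = 0.98, -0.10) and Nwd2 (r = 0.97, -0.09).

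Among erythroid markers, Alas2, the first enzyme of haem synthesis in red cells, averaged 9.33 in KO and 10.11 in WT, without overlap of the groups (log2 difference -0.78, SE 0.16, adjusted p = 0.088 by limma). Slc4a1, the anion exchanger of red cells, differed the other way, by 0.38 (SE 0.17, adjusted p = 0.32 by limma), also without overlap. It averaged 5.32 in KO and 4.93 in WT, near the floor of 4.98. Its KO arrays alone would have met the filter, which favours such a lack of overlap. Of the 4 erythroid markers, 1 was above 0. Pecam1, an endothelial adhesion gene, differed by -0.58 (SE 0.24, adjusted p = 0.29 by limma) without overlap at the brightest of its 3 kept probes. Of the 8 endothelial markers tested, 5 were above 0.

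The median log2 difference was 0.05 over 8 endothelial markers, -0.18 over 4 erythroid markers, 0.24 over 2 B cell markers, -0.05 over 2 T and NK cell markers and -0.11 over 2 pancreas markers.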
